A study of Mus musculus with 5 samples.

Results

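Receptors first known from natural killer (NK) cells can also be carried by activated T cells, and 7 of their genes, Klrc1, Klrd1, Klrk1, Klrg1, Crtam, Cd226 and Cd160, were followed here in CD4+ T cells of mice with transfer colitis. They were taken by name, through the probe sets that carry only the symbol of 1 of these genes, and made up 11 of 34945 such probe sets and 7 of 18193 genes. Klrc1 had 2 probe sets, Cd160 had 4 and each of the other 5 genes had 1. The probe set with the highest mean over the arrays stood for a gene in the comparisons of genes.

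In the transfer model, CD45RBhigh CD4+ T cells from the spleen of BALB/c mice were given to Rag1-/- mice, which lack T and B cells of their own but keep NK cells, and colitis followed. Gene expression in CXCR6+CD4+ T cells (2 arrays, labelled CXCR6 Hi) and in CXCR6-CD4+ T cells (2 arrays, labelled CXCR6 Lo), both sorted from the colonic lamina propria (LP) of recipients at 6 weeks, was measured on Affymetrix GeneChip arrays. The remaining array, the only one of its group, held naive T cells (labelled CD45Rb Hi). Its source label and the methods name the spleen of BALB/c mice without colitis, while another label of the same array names the LP of healthy mice. All 5 arrays carry the BALB/c label, and all cells were sorted as CD3+CD4+. The methods give an age of 8 to 12 weeks for the mice at use, with no age for single arrays. The strain of the Rag1-/- hosts and the number of mice pooled for an array are not stated there. The study's supplement gives the 6 weeks for the sorted LP cells, while the methods name 8 weeks after transfer for the recipients. The labels call the LP arrays biological replicates, and the p-values cover no more than the spread between them. The naive array has no spread of its own and was assumed to vary like the LP arrays.

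NKG2A, the product of Klrc1, pairs with CD94, the product of Klrd1, into an inhibitory receptor that binds the nonclassical class I molecule Qa-1. NKG2D, from Klrk1, is an activating receptor for stress-induced ligands of the Raet1, H60 and Ulbp1 families and signals through the adaptors DAP10 and, in mouse NK cells, DAP12. KLRG1 is an inhibitory receptor for cadherins found on differentiated effector lymphocytes. CRTAM, CD226 and CD160 belong to the Ig superfamily. CRTAM binds Cadm1, CD226 binds the nectin-like protein CD155 (Pvr) and Nectin2 and is an activating receptor, and CD160 binds the herpesvirus entry mediator (Tnfrsf14). In bulk samples such as these, fewer cells carrying a receptor and less of its RNA per cell cannot be told apart.

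In the RefSeq annotation, Klrd1, Klrk1, Klrc3, Klrc2 and Klrc1 lie in this order on chromosome 6 as 5 consecutive protein-coding genes, part of the NK gene complex. Klrg1 lies on the same chromosome, 134 protein-coding genes away, and the remaining members lie on other chromosomes. RefSeq promoter windows of 300 bases, 250 before and 50 after a start site, were found for 3 of the 7 members (Klrc1, Klrk1 and Cd160, the last with 2 windows). The windows of Klrc1 and Klrk1 are shown because both genes lie in the complex and both had their higher signals in CXCR6+ cells. They are from build GRCm38.p6, a C57BL/6J genome, at chr6:129678924-129679223 for Klrc1 and chr6:129623815-129624114 for Klrk1, both on the minus strand and written 5′ to 3′. Capitals mark matches to the RUNX core TGTGGT or, on the other strand, ACCACA.
Klrc1: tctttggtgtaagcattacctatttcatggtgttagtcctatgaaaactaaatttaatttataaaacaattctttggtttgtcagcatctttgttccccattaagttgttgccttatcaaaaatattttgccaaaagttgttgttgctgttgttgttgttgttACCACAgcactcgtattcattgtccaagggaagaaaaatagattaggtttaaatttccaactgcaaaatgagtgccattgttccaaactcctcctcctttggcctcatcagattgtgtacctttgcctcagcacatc
Klrk1: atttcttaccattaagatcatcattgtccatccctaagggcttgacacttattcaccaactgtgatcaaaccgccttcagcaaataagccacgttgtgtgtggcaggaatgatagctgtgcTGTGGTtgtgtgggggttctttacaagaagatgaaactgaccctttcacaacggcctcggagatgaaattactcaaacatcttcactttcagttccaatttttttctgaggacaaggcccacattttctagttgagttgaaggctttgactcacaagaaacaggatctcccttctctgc
The RUNX core was searched on both strands, and its first matching base lay at -87 from the start site in Klrc1 and at -129 in Klrk1. Both Cd160 windows held it too, at -76 and -101. Of 32851 promoter windows of this length, 16.8% held a match. The T-box letters TCACAC, or GTGTGA on the other strand, were in neither window shown but in both Cd160 windows, against 14.5% of all windows. The other T-box letters searched, AGGTGT or ACACCT, were in none of these 4 windows and in 13.7% of all windows. These matches describe the letters only and overlapped no other motif searched.

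Signals are linear values relative to the median of their array, and differences are log2 differences of these signals. Levels of different probe sets cannot be set against each other. Across all genes, limma found 15.1% higher and 18.8% lower in LP than in naive T cells (adjusted p under 0.05), or 2756 against 3414 genes. This split depended on the scaling. It was 4571 higher against 2125 lower when each array was set to its 75th percentile, which moved the median difference of all genes from -0.14 to 0.46. Between CXCR6+ and CXCR6- cells 0% of all genes passed. The poly-A control RNA Dap, added before labelling, read 64.6 to 102 in LP and 0.194 in naive T cells, so differences in preparation and in cell type cannot be told apart in any comparison with naive T cells.

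All measured T cell markers read above the array median on every array, but they did not move together. Cd4 read 39.2 and 39.1 in CXCR6+ cells, 27.0 and 22.95 in CXCR6- cells and 56.0 in naive T cells. Of the T cell markers, 6 of 7 were measured, with a summed signal of 583 to 613 in CXCR6+ cells, 475 to 513 in CXCR6- cells and 445 in naive T cells. Cd28 made up much of the LP sum, at 215 to 230 in LP and 33.5 in naive T cells. With limma 1 of these markers rose in LP (Cd28) and 2 fell. Cd3e read 23.15 to 25.1 in LP against 86.1 in naive T cells (adjusted p = 0.0176). Cd3d read 45.4 to 68.5 against 124.8 (adjusted p = 0.0396). Cd8b1, which marks conventional CD8 T cells, read 0.09 to 0.415 in LP and 1.55 in naive T cells. Of 8 NK cell markers 6 were measured, and 2 of them stood apart on the naive array. Ncr1, which encodes the NK receptor NKp46, read 24.9 there and 0.1 to 0.685 in LP, and Klre1, an NK cell lectin-like receptor, read 31.0 there and 0.869 to 1.21 in LP. Klra8 stayed at or under 0.286 on every array, Fcgr3 read 9.74 to 14.0 in LP and 12.9 in naive T cells, and Eomes read highest in CXCR6- cells, as given below. The summed signal of the NK list was 233.5 in naive T cells, 83.6 and 279 in CXCR6+ cells and 115 to 117 in CXCR6- cells, and most of it came from Gzma, a granzyme that T cells also make.

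Klrc1 was the member that stood furthest apart between the LP subsets. Its signal was 186 and 211 in CXCR6+ cells, 59.98 and 19.3 in CXCR6- cells and 31.99 in naive T cells. Both CXCR6+ arrays lay above the other 3, and the naive array fell between the CXCR6- arrays, which were themselves far apart. The log2 difference of CXCR6+ over CXCR6- cells was 2.54 (SE 0.64, 95% interval 0.70 to 4.39), or 5.82-fold, with limma adjusted p = 0.669. It did not pass, and ranked 71 of 18193 genes by the size of the difference in this direction. CXCR6+ cells exceeded naive T cells by 2.63 (SE 0.79, adjusted p = 0.0831), and CXCR6- cells differed from naive T cells by 0.09 (SE 0.79, adjusted p = 0.944). Without genes under the 40th percentile of signal, Klrc1 passed as higher in CXCR6+ than in naive T cells, with an adjusted p of 0.0178 in a range of 0.00748 to 0.317 over 9 alternatives.

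The second Klrc1 probe set (1426182_a_at) gave the same order of the subsets. It read 2.99 and 3.16 in CXCR6+ cells, 1.15 and 0.198 in CXCR6- cells and 2.33 in naive T cells. The difference between subsets was 2.69 (SE 0.97, adjusted p = 0.799). Here the naive array lay between the subsets rather than among the CXCR6- arrays, with CXCR6- cells at -2.29 (SE 1.18, adjusted p = 0.236) from naive T cells. By this probe set CXCR6+ cells were at 0.40 from naive T cells (SE 1.18, adjusted p = 0.827), against 2.63 by the first. Klrc2 and Klrc3, the paralogs that lie beside Klrc1, had probe sets with signals of 0.031 to 0.504 and 0.052 to 0.156. The Klrc genes are alike in sequence, and whether the Klrc1 probe sets also take up RNA of these paralogs was not tested.

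Klrd1, which encodes the CD94 partner of NKG2A, had its highest signals on the same arrays. They were 118 and 112 in CXCR6+ cells, 55.1 and 39.1 in CXCR6- cells and 53.9 in naive T cells. The subsets did not overlap, and the naive array lay between the CXCR6- arrays as deposited and below both (7.15 against 8.26 for the lower of them) with arrays set to their 75th percentile. The difference between subsets was 1.31 (SE 0.28, 95% interval 0.50 to 2.11), or 2.475-fold, with adjusted p = 0.637. Against naive T cells the difference was 1.09 in CXCR6+ cells (SE 0.34, adjusted p = 0.0911) and -0.22 in CXCR6- cells (SE 0.34, adjusted p = 0.664), the latter being 0.45 when arrays were set to their 75th percentile and 0.12 after quantile normalization. As with Klrc1, the CXCR6+ against naive difference passed without genes under the 40th percentile of signal (adjusted p = 0.0245, in a range of 0.00882 to 0.134 over 9 alternatives).

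Klrk1, the NKG2D gene, showed another order. Its signal was 7.76 and 7.55 in CXCR6+ cells, 3.92 and 2.31 in CXCR6- cells and 7.59 in naive T cells. As deposited, the naive array was level with the CXCR6+ arrays, and the CXCR6- arrays lay below all others. With arrays set to their 75th percentile, the naive array lay between the subsets (1.55 and 1.40 in CXCR6+, 0.819 and 0.488 in CXCR6-, 1.01 in naive T cells). The subsets differed by 1.35 (SE 0.35, 95% interval 0.34 to 2.36), or 2.54-fold, with adjusted p = 0.689. CXCR6+ cells differed from naive T cells by 0.01, with a 95% interval of -1.23 to 1.25, which became 0.54 after quantile normalization and 0.55 with 75th percentile scaling. CXCR6- cells were at -1.34 from naive T cells (SE 0.43, adjusted p = 0.095), at -0.70 and -0.67 under those scalings. They passed as lower without genes under the 40th percentile of signal (adjusted p = 0.0245, in a range of 0.0166 to 0.309 over 8 alternatives).

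Klrg1 and Crtam had the opposite order, with their highest deposited signals on the naive array. Klrg1 read 2.76 and 6.04 in CXCR6+ cells, 4.995 and 14.7 in CXCR6- cells and 17.5 in naive T cells. The subsets overlapped, since the lower CXCR6- array lay under the higher CXCR6+ array, and all 4 LP arrays lay below the naive array as deposited. With arrays set to their 75th percentile, CXCR6- replicate 2 (3.11) lay above the naive array (2.33). The difference between subsets was -1.07 (SE 0.74, adjusted p = 0.812), and that of LP against naive T cells was -1.57 (SE 0.83, adjusted p = 0.22), or -0.94 after quantile normalization and -0.97 with 75th percentile scaling. CXCR6- cells alone were at -1.03 from naive T cells (SE 0.91, adjusted p = 0.436), and at -0.33 and -0.37 under those scalings. Without CXCR6- replicate 2 the difference between subsets was -0.29.

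Crtam, which marks a subset of activated CD4 T cells with cytotoxic features, read 2.74 and 2.30 in CXCR6+ cells, 4.09 and 5.98 in CXCR6- cells and 7.21 in naive T cells. As deposited, the 3 groups followed each other with no overlap, and with arrays set to their 75th percentile the naive array (0.956) lay between the CXCR6- arrays (0.854 and 1.26). CXCR6+ cells were at -0.98 from CXCR6- cells (SE 0.31, 95% interval -1.86 to -0.10), with adjusted p = 0.73. Against naive T cells the difference was -1.52 in CXCR6+ cells (SE 0.37, adjusted p = 0.0581) and -0.54 in CXCR6- cells (SE 0.37, adjusted p = 0.332), the latter turning to 0.12 both after quantile normalization and with arrays set to their 75th percentile. Over all LP arrays it was -1.03 (SE 0.34, adjusted p = 0.0943), and it passed without genes under the 40th percentile of signal (adjusted p = 0.0262, in a range of 0.0247 to 0.409 over 9 alternatives).

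Cd226 and Cd160 had signals of about 1 to 3, where replicates differ more than at higher signals. Between CXCR6- replicates the median absolute log2 difference was 0.73 for genes with a signal under 1, 0.35 for those from 1 to 4 and 0.19 for those over 4. Cd226 read 1.2 and 3.03 in CXCR6+ cells, 1.05 and 0.895 in CXCR6- cells and 1.13 in naive T cells. Only CXCR6+ replicate 2 stood clear of the others. The difference between subsets was 0.98 (SE 0.54, adjusted p = 0.797), and without that array it was 0.31. Cd226 was the 1 member with both CXCR6+ arrays above the naive array and both CXCR6- arrays below it, a pattern that 1.64% of all genes had. With arrays set to their 75th percentile, it lost this pattern, with the naive array (0.149) below all LP arrays (0.189 to 0.562).

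The 4 probe sets of Cd160 went different ways. The one with the highest mean, 1420066_s_at, read 1.85 and 2.95 in CXCR6+ cells, 1.18 and 1.94 in CXCR6- cells and 2.54 in naive T cells, with the subsets overlapping. It gave a difference of 0.63 between subsets (SE 0.42, adjusted p = 0.808) and of -0.44 for LP against naive T cells (SE 0.47, adjusted p = 0.509), which was 0.16 with arrays set to their 75th percentile. A second probe set, 1420396_at, read 1.61 and 1.70, then 1.43 and 2.11, and 1.37 in naive T cells, and differed by 0.31 in LP (SE 0.36, adjusted p = 0.551). The remaining probe sets had their one high signal on the naive array.

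For 1420067_at it was 3.26 in naive T cells, against 0.190 and 0.127 in CXCR6+ cells and 0.125 and 0.101 in CXCR6- cells. In the fit over all 45101 probe sets it fell by 4.63 in LP (SE 0.38, adjusted p = 0.0163), where 13.6% of probe sets were called lower and 13.7% higher. For 1456847_at the signal was 3.27 in naive T cells, 0.418 and 0.385 in CXCR6+ cells and 0.269 and 0.127 in CXCR6- cells, and it fell by 3.59 (SE 0.52, adjusted p = 0.0249). With signals under 1 set to 1, the difference was -1.71 for each. Both also passed as lower in each subset against naive T cells, with adjusted p from 0.0213 to 0.0424. Of the 11 probe sets of the members, these were the 2 that passed in any comparison, and both read under the array median on every LP array. Of the 6 measured NK cell markers, Ncr1 and Klre1 moved with them, at 24.9 and 31.0 on the naive array and at most 1.21 on the LP arrays, while Eomes, Gzma, Fcgr3 and Klra8 did not pass in LP. The part of NK cell RNA on the naive array in this result was not tested. CD160 is carried by NK cells and CD8 T cells as well as by some CD4 T cells.

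**Figure D1:**
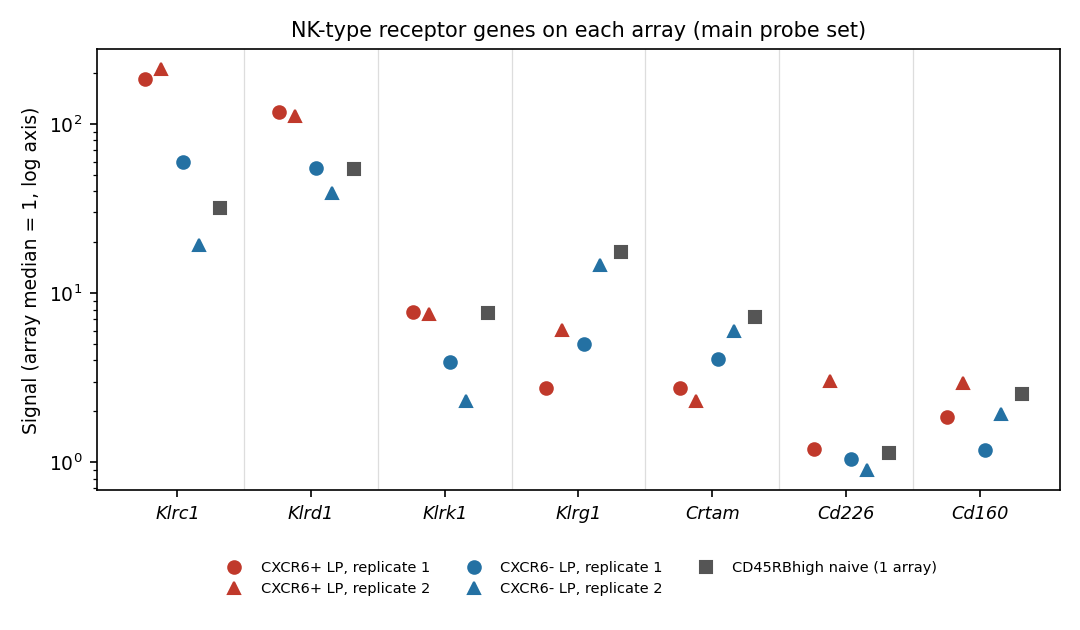
Signal of each of the 7 genes (1 probe set a gene, array median 1, log axis) on each of the 5 arrays, with 1 point an array. Klrc1 reads 186 and 211 in CXCR6+ cells against 19.3 to 59.98 on the other arrays, while Klrg1 and Crtam read highest on the naive array.

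**Figure D2:**
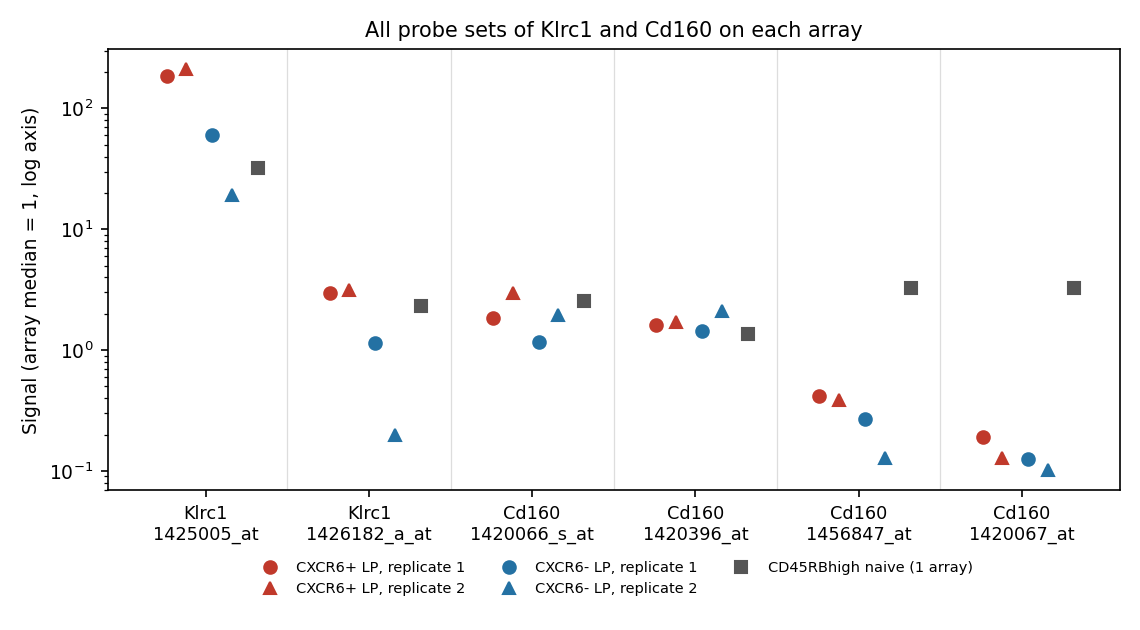
Signal of every probe set of Klrc1 and Cd160 (array median 1, log axis) on each of the 5 arrays, with 1 point an array. The Cd160 probe sets 1456847_at and 1420067_at read 3.27 and 3.26 in naive T cells and under 0.5 on all LP arrays, whereas the other Cd160 probe sets read between 1.18 and 2.95 throughout.

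As a group, 4 of the 7 members (Klrc1, Klrd1, Klrk1 and Cd226) had both CXCR6+ arrays above both CXCR6- arrays, where 25.1% of all genes did. In the opposite direction it was 1 member (Crtam), where 14.3% of all genes did. The median difference of CXCR6+ over CXCR6- cells was 0.98 over the members and 0.08 over all genes. The members were chosen with earlier results of these data known, so these counts and medians describe the group and do not test it. With limma 0 of 7 members passed after adjustment, as 0% of all genes did, and 4 of 7 (Klrc1, Klrd1, Klrk1 and Crtam) had an unadjusted p under 0.05, where 6.55% of all genes had. By the methods' t-test on the same values, 1 member (Klrd1) was under 0.05 and 0 of 7 passed after Benjamini-Hochberg adjustment, and of all genes 1283 and 1 did. An exact permutation test of 2 arrays against 2 cannot go below a two-sided p of 0.333.

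Some markers of other cells moved with the same arrays. The summed signal of the T cell markers did not overlap between subsets, nor did that of Cd8a and Cd8b1, at 3.16 and 5.09 in CXCR6+ cells against 2.25 and 1.81 in CXCR6- cells. The separation of this sum came from Cd8a, at 3.07 and 4.67 against 1.88 and 1.47. Cd8b1 overlapped between the subsets, at 0.09 and 0.415 against 0.37 and 0.338. The 5 mast cell and basophil markers summed to 42.8 and 59.9 against 21.0 and 26.3, and nearly all of this was Kit, a receptor not confined to mast cells, with Cpa3, Ms4a2 and Mcpt8 at no more than 1.67 on the LP arrays and Mcpt1 at 0.815 to 2.51. Their part in the result was not tested. Of the NK cell markers, Ncr1 was at most 0.685 and Klre1 at most 1.21 on every LP array. Gzma read 266 and 65.8 in CXCR6+ cells and 88.9 and 65.5 in CXCR6- cells, Fcgr3 read 9.74 to 14.0 on all 4, and Eomes was higher in CXCR6- cells. The 2 measured of 5 gamma delta T cell markers summed to 0.360 and 2.14 in CXCR6+ cells and to 0.975 and 1.43 in CXCR6- cells. Trgv4, a gamma delta T cell receptor segment outside the list, read 40.5 and 45.9 in CXCR6+ cells against 15.2 and 9.95 in CXCR6- cells, and its part in the result was not tested.

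**Figure D3:**
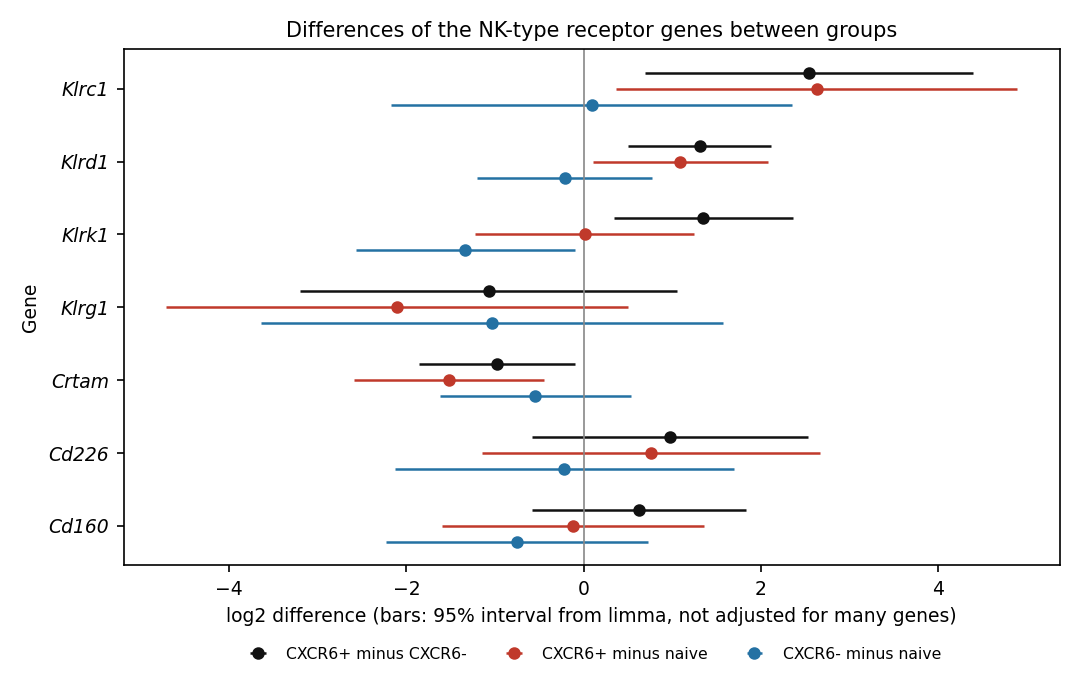
Log2 difference of each of the 7 genes between CXCR6+ and CXCR6- cells and of each subset from naive T cells, with 95% intervals from limma that are not adjusted for the number of genes. The intervals of CXCR6+ minus CXCR6- lie above 0 for Klrc1, Klrd1 and Klrk1 and below 0 for Crtam.

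Against naive T cells, 0 of 7 members passed in either direction with limma, where 33.9% of all genes passed, and 1 (Crtam) had an unadjusted p under 0.05, where 48.4% of all genes had. Against naive T cells 28.6% of all genes passed in CXCR6+ cells (13.2% higher, 15.3% lower) and 29.5% in CXCR6- cells (12.8% higher, 16.7% lower), with 0 of 7 members in each. In no member did all 4 LP arrays lie above the naive array, against 35.0% of all genes, while in 2 (Klrg1 and Crtam) all 4 lay below it as deposited, against 40.9%. The median over the members was -0.44 and that over all genes -0.14. Of the single subsets, CXCR6+ cells had 3 members at an unadjusted p under 0.05 (Klrc1, Klrd1 and Crtam), where 45.1% of all genes were, and CXCR6- cells had 1 (Klrk1), where 45.5% were. The comparisons of the subsets with naive T cells share the naive array. As deposited, both CXCR6- arrays lay below the naive array for 5 members (Klrk1, Klrg1, Crtam, Cd226 and Cd160), and for 46.9% of all genes.

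The other lectin-like receptors of the NK gene complex were measured for 12 of 21. Of these 0 rose, 4 fell and 8 did not pass in LP, with a median of -0.45. Over all genes 15.1% were higher and 18.8% lower. Klrb1a, of the NK1.1 family, fell by 7.38 (0.023 to 0.099 in LP, 9.23 in naive T cells, adjusted p = 0.0119). Its LP signals lie under the lower quartile of the arrays (0.297 to 0.333), so the size depends on very low values, and with signals under 1 set to 1 the difference was -3.21. Set so, Klra7 was at -2.31 and Klra5 at -1.52. Klre1 fell by 4.92, and the Ly49 receptor genes Klra7 and Klra5 differed by -4.33 and -2.69.

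Of 15 Ig-family receptors of NK and T cells, 13 were measured, of which 1 rose and 3 fell (median -0.87), against 15.1% higher and 18.8% lower of all genes. The one that rose was Cd96, which binds the CD226 ligand CD155, with signals of 87.0 and 131 in CXCR6+ cells, 75.3 and 75.7 in CXCR6- cells and 32.2 in naive T cells (difference 1.48, SE 0.34, adjusted p = 0.045). Those that fell were Ncr1 (-6.52, or -4.64 with signals under 1 set to 1), Ly9 (-4.14) and Cd244a (-3.19), which encodes the 2B4 receptor of NK and CD8 T cells. Of these, Ly9, a receptor of the SLAM family, read 1.09 to 2.28 in LP and 27.5 in naive T cells.

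Ligands of the members were measured for 10 of 18, of which 3 rose and 2 fell (median 0.07), with the same shares of all genes beside them. Those that fell bind members described above. Cadm1, the ligand of CRTAM, read 1.11 to 2.60 in LP and 11.7 in naive T cells and fell by 2.80 (SE 0.50, adjusted p = 0.0278). Tnfrsf14, the ligand of CD160, read 0.694 to 1.59 against 6.82 and fell by 2.46 (SE 0.55, adjusted p = 0.0428). Pvr, the ligand of CD226, read 4.58 to 7.27 against 14.7 and did not pass (adjusted p = 0.0619). Those that rose, Cdh4, H60c and Nectin3, did so from signals of 0.032, 0.093 and 0.276 on the naive array to at most 1.49 on an LP array, and with signals under 1 set to 1 they differed by 0, 0 and 0.30. H60c is a ligand of NKG2D.

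Adaptors and signalling proteins were measured for 22 of 24, of which 3 rose and 4 fell (median -0.09), close to the 15.1% and 18.8% of all genes. Hcst encodes DAP10, the adaptor of NKG2D, and read 18.3 and 21.4 in CXCR6+ cells, 11.3 and 11.4 in CXCR6- cells and 31.1 in naive T cells. The CXCR6- arrays were the lowest, as for Klrk1, and Hcst fell by 1.06 in LP (SE 0.25, adjusted p = 0.0491). Tyrobp, which encodes DAP12, read 8.90 to 19.4 in LP and 58.7 in naive T cells and did not pass (adjusted p = 0.0583). Fcer1g, an adaptor of NK and myeloid cell receptors, fell by 4.03, the largest fall of the list. Sh2d1a, the SLAM-family adaptor SAP, fell by 1.49 and the T cell kinase gene Prkcq fell by 1.36. The sizes of the falls of Hcst, Sh2d1a and Prkcq depend on the scaling. With arrays set to their 75th percentile, the median difference of all genes moved from -0.14 to 0.46. Those that rose were Grb7 by 4.26, the Src-family kinase gene Fyn by 1.49 and Sh2d2a, a T cell adaptor, by 1.11. Grb7 read 0.22 in naive T cells, and with signals under 1 set to 1 it differed by 2.07.

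Of 12 transcription factors of NK and effector T cells, 11 were measured, of which 4 rose and 0 fell (median 0.37), against 15.1% and 18.8% of all genes. Zeb2, found in terminally differentiated effector cells, rose by 2.91 and Prdm1, which encodes Blimp-1, by 1.11, while Ets1 and Id2 rose by 1.57 and 1.196. Prdm1 read 27.5 and 25.2 in CXCR6+ cells, 10.4 and 9.49 in CXCR6- cells and 7.49 in naive T cells, and the subsets differed by 1.41 (SE 0.22, adjusted p = 0.551). Eomes, chosen after its values were seen, went the other way between the subsets. It read 1.38 and 2.32 in CXCR6+ cells, 13.02 and 36.5 in CXCR6- cells and 11.0 in naive T cells, a difference of -3.61 (SE 0.65, adjusted p = 0.564). Tbx21, the T-bet gene, read 14.5 and 10.9, then 6.72 and 7.98, and 20.8.

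Over these 5 lists, 11 of 68 measured genes rose (16.2%) and 13 fell (19.1%) against naive T cells, close to the 15.1% and 18.8% of all genes. With a replicate block 5 rose, where 1705 of all 18193 genes did. The block left 0 of all genes passing in either subset against naive T cells, so no member's call could change there. With arrays set to their 75th percentile 19 rose and 8 fell, where 4571 and 2125 of all genes did. Between CXCR6+ and CXCR6- cells 0 genes of any of these lists passed. Markers of other cells also differed in LP. The 6 stromal markers summed to 96.4 to 158 in LP and 8.44 in naive T cells, and the 5 measured B cell markers to 2.63 to 3.65 against 50.2. Of the stromal markers, Col1a1 went the other way, at 0.409 to 0.898 in LP and 1.72 in naive T cells. Of the B cell markers, Pax5 did, at 0.673 to 1.22 in LP and 0.025 in naive T cells (limma adjusted p = 0.0123). With signals under 1 set to 1, Pax5 differed by 0.07. Other lists were mixed as well. Of the 5 measured dendritic cell markers (9 to 12.5 against 28.3 summed), Zbtb46 fell from 23.8 to between 1.28 and 2.07, and the median difference was 0.89. Of the 8 myeloid markers (265 to 335 against 264.5), 3 rose (Cd14, Lyz2 and Csf1r) and 2 fell (S100a8 and S100a9). Of the 8 colonic epithelial markers (37.7 to 79.9 against 104), Car1 fell from 85.2 and Krt8 rose from 0.387, to 9.36 to 29.6, and the median difference was 1.81. Their part in the results against naive T cells was not tested.

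**Figure D4:**
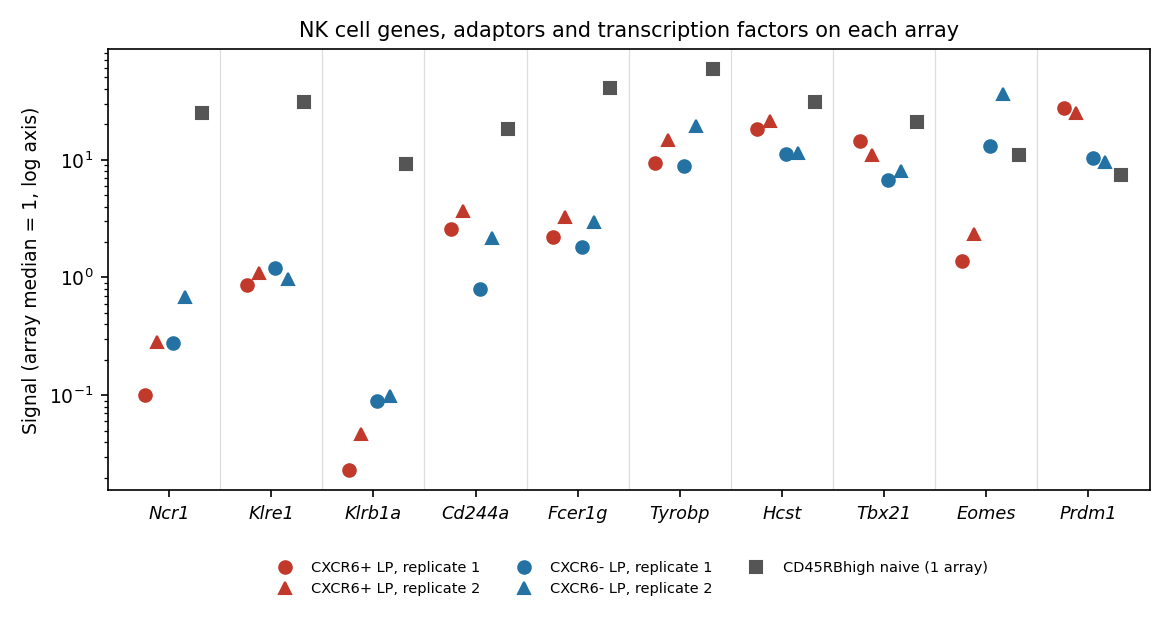
Signal of 10 genes of the NK cell, lectin-like receptor, Ig-family, adaptor and transcription factor lists (array median 1, log axis) on each of the 5 arrays, with 1 point an array. All but Eomes and Prdm1 read highest on the naive array. Eomes and Prdm1 separate the CXCR6+ from the CXCR6- arrays in opposite directions, and Klrb1a, Cd244a, Hcst and Tbx21 do not overlap between these arrays either.

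The genes whose profile over the 5 arrays lay nearest to each member were found among 10550 genes with a mean signal of at least 1, by the root mean square log2 difference after centring. For Klrd1 the nearest was Ctsw, the cathepsin W gene of cytotoxic lymphocytes, at 0.0614. It read 105 and 110 in CXCR6+ cells, 49.4 and 37.3 in CXCR6- cells and 52.6 in naive T cells. Epsti1 (0.119) and Gabarapl1 (0.149) followed. Klrc1 had no such near neighbour, and its first were Pde5a (0.404), the tyrosine kinase gene Fes (0.493) and Trgv4 (0.511). Trgv4, a gamma delta T cell receptor segment, read 40.5 and 45.9, then 15.2 and 9.95, and 6.11. Cxcr6, the gene the cells were sorted on, came 18th for Klrc1 at 0.701, with signals of 184 and 225, then 58.1 and 25.3, and 10.5.

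Nearest to Klrk1 were Ifitm3 (0.0798), an interferon-induced membrane protein gene, Arl15 (0.0808) and Cerk (0.102). Ifitm3 read 85.2 and 76.8, then 45.9 and 23.3, and 78.9. Klrg1 was followed by Setd4 (0.244), BC035044 (0.27) and Cnksr3 (0.298), and Crtam by Slfn4 (0.144), Lonrf1 (0.152) and Gsto1 (0.166). For Cd226 they were Wbp1 (0.206), Cetn4 (0.257) and Cd8a (0.258), and for Cd160 Actl7b (0.0579), Zfp931 (0.106) and Ptpmt1 (0.106). Cd8a read 3.07 and 4.67, then 1.88 and 1.47, and 1.89. With 5 arrays in 3 groups, many genes share such a profile, and nothing is drawn from it.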

How the data were processed

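RNA of CXCR6+CD4+ and CXCR6-CD4+ T cells from the colonic LP (2 arrays each) and of naive T cells (1 array) was measured on Affymetrix arrays. The deposited values are linear intensity signals, each relative to its array's median of 1. The methods of the authors name GeneSpring for these values and the submitters' processing notes name RMA. The sources used here give neither background correction nor filters. The upper quartile was 4.73 to 5.39 in LP and 7.54 in naive T cells. Precision is limited by the small number of arrays.

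Among 45101 probe sets, 34945 had 1 gene symbol and 932 had several. Of those with 1 symbol, 34741 matched RefSeq (GRCm38.p6) by Entrez ID. The 2 signals of 0 were set to 0.001 before log2, and no filter was applied. Groups came from the labels. All 5 arrays entered 1 linear model of the 3 groups in limma 3.58.1 under R 4.3.3 (lmFit, eBayes, two-sided, 2 residual and 1.678 prior degrees of freedom), with Benjamini-Hochberg adjustment over all genes, or over all probe sets for single probe sets, and a threshold of 0.05. Simulated data with known differences were used only to check the mean size of its estimates.

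The members and lists were chosen with earlier results of these data known. All 7 members are named, with the members of each list that differed most among those that passed, ligands and adaptors of the members, and the 3 genes nearest to each member in profile (predicted genes left out). The alternatives were another choice of probe sets, a filter at the 40th percentile, quantile and 75th percentile scaling, a robust fit with a variance trend, the replicate block, log2 of the signal plus 1, a floor of 1, leaving out each LP array, and the methods' t-test. Tables and plots used pandas 2.3.3 and matplotlib 3.10.9 in Python 3.11.15.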

Additional observations from a re-analysis of the deposited data

How the results depend on the processing

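Between CXCR6+ and CXCR6- cells, 0 members, 0 pathway genes and, by limma, 0 of all genes passed under any alternative with all arrays. Of 90 member values 89 kept their direction. The exception was Cd160, at -0.07 without the _s_at, _x_at and _a_at probe sets. Leaving out 1 LP array moved Klrc1 between 1.72 and 3.36, Klrd1 between 1.06 and 1.56, Klrk1 between 0.97 and 1.73, Crtam between -1.25 and -0.70, Klrg1 between -1.85 and -0.29, Cd226 between 0.31 and 1.65 and Cd160 between 0.27 and 0.99. Where that left 1 array in a group, it was assumed to vary like the others.

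Member counts against naive T cells were 0 as reported and changed as follows. For LP, 1 member was lower with the mean of probe sets (Cd160), with the 40th percentile filter, with a variance trend and robust fitting, and with log2 of the signal plus 1 (Crtam each time). For CXCR6+ cells, 2 were higher with the filter, the trend and log2 of the signal plus 1 (Klrc1 and Klrd1), and 1 with 75th percentile scaling (Klrd1, 1.63). In these cells 1 was lower with the mean of probe sets (Cd160), the filter and log2 of the signal plus 1 (Crtam), and 2 with the trend (Klrg1 and Crtam). For CXCR6- cells, 1 was lower with the mean of probe sets (Cd160), the filter, the trend and log2 of the signal plus 1 (Klrk1). Calls over all genes changed too. Of 10916 genes kept by the filter, 4421 were lower in LP, 2389 higher and 3961 lower in CXCR6+ cells, and 4350 lower in CXCR6- cells. With the trend these counts were 4757, 3353, 4265 and 4612 of 18193 genes. With log2 of the signal plus 1 they were 5086, 2648, 4616 and 4951. With the mean of probe sets 2578 were lower in LP, 1935 in CXCR6+ and 2133 in CXCR6- cells. With 75th percentile scaling 3859 were higher in CXCR6+ cells. The filter tests fewer genes, and otherwise the cause was not tested. Of the members' probe sets 2 were lower in LP, and 0 when only the one with the highest mean was taken.

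Of the pathway lists, 11 genes were higher and 13 lower in LP. The higher count was 3 with the mean of probe sets, 19 with 75th percentile scaling, 17 with the trend, 5 with a replicate block and 5 with a floor of 1. The lower count was 21 with the filter, 8 after quantile normalization, 8 with 75th percentile scaling, 22 with the trend, 22 with log2 of the signal plus 1 and 0 to 6 without 1 LP array, which leaves fewer degrees of freedom. Over all 18193 genes the calls moved too, from 2756 higher and 3414 lower as reported. The higher count was 1988 with the mean of probe sets, 4571 with 75th percentile scaling, 3545 with the trend, 1705 with the block and 1068 with the floor. The lower count was 4421 of 10916 with the filter, 2307 after quantile normalization, 2125 with 75th percentile scaling, 4757 with the trend and 5086 with log2 of the signal plus 1. The labels do not say that a replicate number marks a shared mouse or day. Deviations of same-numbered arrays correlated at 0.019 over all genes and 0.192 over 10907 genes with a mean signal of at least 1. With the block 0 genes passed between subsets (Klrc1 2.54, adjusted p = 0.765) or in either against naive T cells, so no member could.

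Signs turned only in differences that did not pass. For LP against naive T cells they were Cd226, which ranged from -0.063 to 0.605 when 1 LP array was left out, and Cd160 at 0.31 without the _s_at, _x_at and _a_at probe sets and at 0.16 with 75th percentile scaling. For CXCR6+ cells they were Klrk1, which ranged from -0.008 to 0.031 when 1 array was left out, and Cd160 at 0.28 without those probe sets, 0.23 after quantile normalization, 0.41 with 75th percentile scaling and from -0.462 to 0.211 when 1 array was left out. For CXCR6- cells they were Klrc1 at -1.10 with the mean of probe sets and from -0.729 to 0.907 when 1 array was left out, Klrd1 at 0.12 after quantile normalization, 0.45 with 75th percentile scaling and from -0.464 to 0.032 when 1 array was left out, Crtam at 0.12 under both scalings, Cd226 at 0.45 with 75th percentile scaling, and Cd160 at 0.35 without those probe sets. Klrk1 has 1 probe set, of the _a_at type, so it has no value without that type. Low signals limit Cd226, Cd160 and the second Klrc1 probe set, and the distance between the CXCR6- replicates limits Klrc1 and Klrg1.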

Other observations

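Receptors of the SLAM family, on which T and NK cells signal to each other, were chosen here after their values were seen. Slamf1 read 128 and 147 in CXCR6+ cells, 71.2 and 34.1 in CXCR6- cells and 22.6 in naive T cells, an order like that of Klrc1 between the subsets. The difference between subsets was 1.47 (SE 0.45, adjusted p = 0.719). Slamf6 went the other way, with 22.6 and 24.3 in CXCR6+ cells, 49.8 and 44.6 in CXCR6- cells and 25.2 in naive T cells, a difference of -1.01 (SE 0.22, adjusted p = 0.646). It was the only measured receptor of the family that was lower in CXCR6+ cells. Cd244a, Cd48, Slamf7 and Cd84 were higher by 1.22, 0.90, 0.76 and 0.59, with no overlap between the subsets. Ly9 differed by 0.22, with overlap, and none of these passed. Tox, a transcription factor gene, read 0.463 and 1.84 in CXCR6+ cells, 2.41 and 6.61 in CXCR6- cells and 21.2 in naive T cells, and did not pass against naive T cells (adjusted p = 0.0777).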
